A study of Homo sapiens with 6 samples.

Results

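The genes described here are the C2H2 zinc finger genes of human chromosome 19 whose symbol is ZNF, a number and at most a single letter. They were taken from the deposited expression table by chromosome, protein-coding biotype and symbol, without use of any expression value, and numbered 246 of 58735 genes. The cells were A375, a human melanoma cell line that carries an activating BRAF mutation, and polyadenylated RNA was sequenced. The CuB group received cucurbitacin B, a plant triterpenoid, for 6 h, and the DMSO group the solvent for 6 h, with 3 libraries in each group. The protocol gives the dose of CuB as 0.2 µM and the library names give 100 nM, so the dose is uncertain. The labels do not state separate cultures for the replicates, so p-values measure only the spread between these libraries, which may be technical.

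C2H2 zinc fingers are small zinc-binding folds, and a row of them reads a stretch of DNA, each finger contacting a few bases. Most ZNF proteins of chromosome 19 also carry a KRAB domain, which binds the scaffold TRIM28 (KAP1) and through it the histone methyltransferase SETDB1 and HP1 proteins, so that the bound chromatin is silenced. The genes arose by tandem duplication, lie in clusters, and many silence transposable elements. Translation of the GENCODE 29 coding sequences placed a match to the KRAB A box in 211 of the 246 members, where at least 8 of 17 conserved positions had to match. The proteins had from 0 to 36 finger matches, with a median of 12, and a median length of 591 residues. The table's own transcription factor column tagged 238 of the 246 as zf-C2H2.

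The levels were low. Expression was given in FPKM, which scales fragments by gene length and library size, and the mean over the 6 libraries was at least 1 FPKM for 183 of the 246 members, which were the ones tested. The median member had 2.14 FPKM, 5 members had 10 FPKM or more, and 2 had no fragment in any library. Next to the filter, ZNF419 and ZNF600 lay just under it at 0.997 and 0.976 FPKM, and ZNF799 and ZNF546 just over it at 1.03 and 1.05 FPKM. Of the tested members 16 averaged at least 1 FPKM with CuB but not with DMSO, and 5 the reverse.

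Most expressed members had higher values with CuB. Of the 183 tested members 92 (50.3%) rose and 5 (2.73%) fell, at an adjusted p under 0.05 in limma's moderated test fitted across all 13273 tested genes, and 86 did not pass. Over all tested genes 38.6% were called in the same fit, 22.9% higher and 15.6% lower. The log2 fold change of CuB over DMSO, on the scale of log2(FPKM + 1), had a median of 0.40 over the tested members and of 0.05 over all tested genes, and was above 0 in 147 members. The groups did not overlap in 111 members with CuB above DMSO and in 9 with CuB below it. Over all tested genes 51.5% did not overlap, 29.8% with CuB above DMSO and 21.7% below. The rises were moderate: 9 called members rose at least 2-fold on this scale and 0 fell 2-fold, where the scale understates the change of low genes.

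Set beside related genes, the members stood at the upper end. Of 197 tested ZNF genes on other chromosomes 70 (35.5%) rose and 15 (7.61%) fell, with a median log2 fold change of 0.24. Of 611 other tested protein-coding genes of chromosome 19, 139 (22.7%) rose and 79 (12.9%) fell, with a median of 0.15. These are descriptions, since genes are not replicates, and no test of the difference between sets was made.

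**Figure D1:**
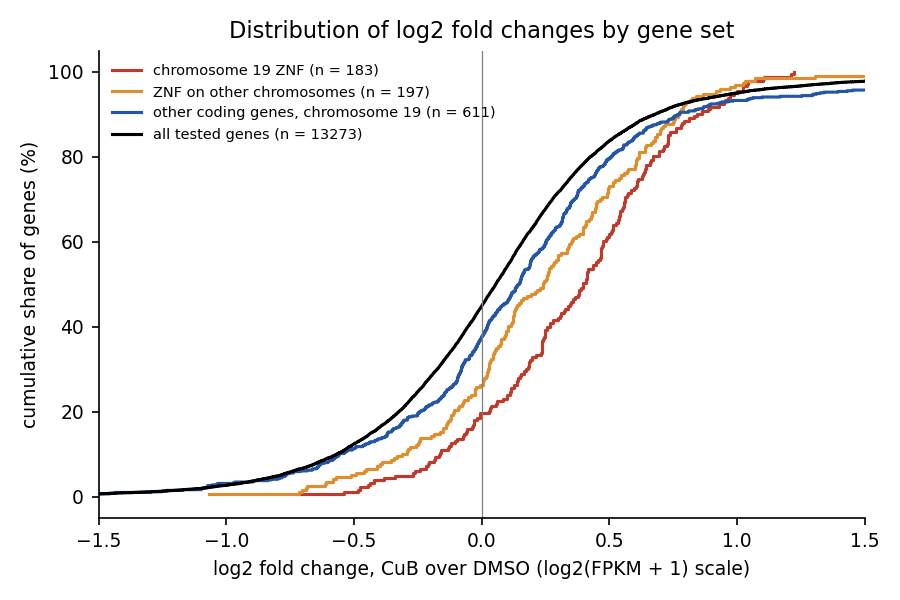
Cumulative share of genes (vertical axis, %) against the log2 fold change of CuB over DMSO on the log2(FPKM + 1) scale (horizontal axis) for the chromosome 19 ZNF genes, the ZNF genes of other chromosomes, the other coding genes of chromosome 19 and all tested genes. The curve of the chromosome 19 ZNF genes lies to the right of the others over most of its length, with a median of 0.40 against 0.05 for all tested genes.

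Each CuB library showed the shift. Relative to the mean of the DMSO libraries, the median tested member stood at 0.45, 0.39 and 0.33 (log2) in CuB replicates 1, 2 and 3, and at 0.05, -0.13 and 0.08 in DMSO replicates 1, 2 and 3. The same median over all tested genes lay between 0.05 and 0.07 in the CuB libraries and between -0.02 and 0.01 in the DMSO libraries. The 246 members together took from 0.392% to 0.423% of fragments in the CuB libraries and from 0.297% to 0.346% in the DMSO libraries, and the groups did not overlap. Their FPKM summed to 853.0, 827.1 and 798.3 in CuB and to 604.1, 556.8 and 615.0 in DMSO. When the libraries were instead set to equal fragment totals, the median of all tested genes moved by -0.14 and that of the members was 0.28, with 71 members higher and 9 lower. Over all tested genes 15.2% were then higher and 23.7% lower.

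**Figure D2:**
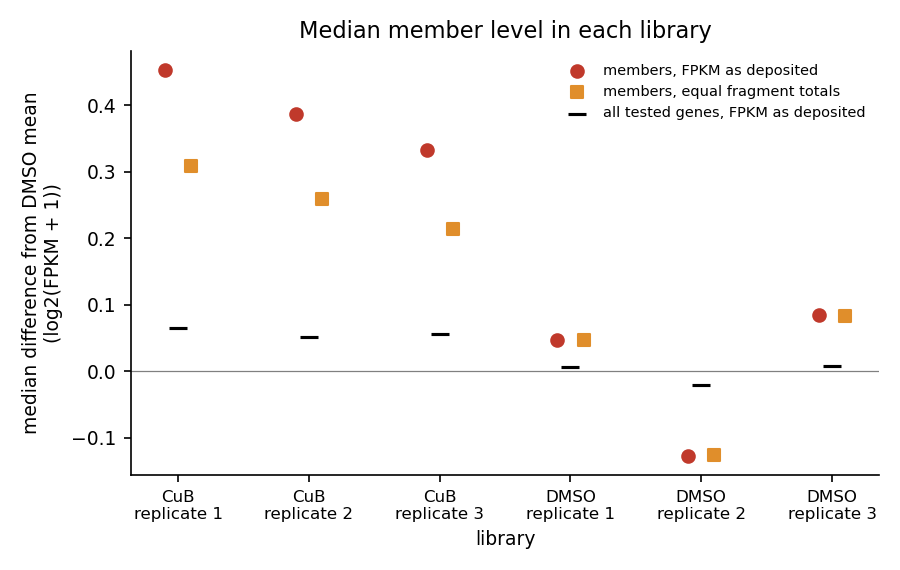
Median over tested members of the difference from the DMSO mean, in log2(FPKM + 1) (vertical axis), in each of the 3 CuB and 3 DMSO libraries (horizontal axis), as deposited (circles) and at equal fragment totals (squares), with the median of all tested genes as a dash. All 3 CuB libraries lie above all 3 DMSO libraries for the members on both scalings.

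Depth and base composition of the libraries were as follows. The libraries held from 15502971 to 16137093 fragments with CuB and from 14845976 to 15797757 with DMSO, recovered as whole fragments from the FPKM values and gene lengths. The library sizes behind the FPKM values were 0.914 to 0.927 of these totals with CuB and 1.033 to 1.036 with DMSO. Deposited values thus stand higher in CuB relative to DMSO than at equal fragment totals. The average GC content of the mRNAs, weighted by fragments, was 48.7%, 49.5% and 49.9% in CuB replicates 1 to 3 and 48.6%, 49.95% and 48.3% in DMSO replicates 1 to 3, so the groups overlapped and DMSO replicate 2 stood apart from the other DMSO libraries. Without that library 84 members rose and 8 fell, and without CuB replicate 2, the loss with the most effect, 61 rose and 1 fell. Over all tested genes 25.9% rose and 17.4% fell without DMSO replicate 2, and 14.8% and 9.77% without CuB replicate 2. After a curve on mRNA GC content was removed from each library 112 members rose and 12 fell, with a median log2 fold change of 0.39. With that correction 33.2% of all tested genes rose and 23.99% fell, against 22.9% and 15.6% without it. The A375 label was set against marker genes: SOX10, a neural crest factor, was at 217.9 FPKM with CuB and 197.8 FPKM with DMSO, and MITF, the melanocyte master factor, at 4.42 and 3.96 FPKM. The pigment genes TYR, DCT, PMEL, MLANA and TYRP1 averaged under 1 FPKM in both groups, and the leukocyte and epithelial markers PTPRC and EPCAM averaged under 0.1 FPKM in each group. Other markers moved: of 4 tested melanocyte markers 2 fell, S100B at 6.64 FPKM in CuB and 26.4 FPKM in DMSO and S100A1 at 1.91 FPKM in CuB and 4.80 FPKM in DMSO, and SOX10 and MITF did not pass. All 3 tested markers of the neural crest-like melanoma state rose, with log2 fold changes of 2.17 for NGFR, 1.45 for AXL and 0.39 for EGFR, and PDGFRB, a marker of fibroblasts and pericytes, fell by 0.74. The part of these changes in the members' values was not tested.

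The upstream sequences of 3 members with the largest rises and of the member with the largest called fall are shown because they let a reader compare the start regions of genes that moved in opposite directions. They are the 250 bases before the RefSeq start (GRCh38.p14) nearest to the start in the deposited table, written 5′ to 3′ on the strand of the gene, with capitals marking matches to the 6 motifs named below. ZNF274 is at chr19:58182811-58183060, ZNF93 at chr19:19900696-19900945, ZNF460 at chr19:57279732-57279981 and ZNF556 at chr19:2867085-2867334, all on the plus strand.
ZNF274: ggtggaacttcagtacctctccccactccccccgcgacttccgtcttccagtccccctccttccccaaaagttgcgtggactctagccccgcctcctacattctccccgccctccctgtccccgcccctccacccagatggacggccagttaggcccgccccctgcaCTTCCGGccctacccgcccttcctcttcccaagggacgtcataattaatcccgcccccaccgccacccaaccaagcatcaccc
ZNF93: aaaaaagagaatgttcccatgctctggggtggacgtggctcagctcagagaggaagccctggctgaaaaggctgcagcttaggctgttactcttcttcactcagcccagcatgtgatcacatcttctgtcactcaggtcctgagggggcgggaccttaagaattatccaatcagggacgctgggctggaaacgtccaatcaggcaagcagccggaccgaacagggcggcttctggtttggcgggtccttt
ZNF460: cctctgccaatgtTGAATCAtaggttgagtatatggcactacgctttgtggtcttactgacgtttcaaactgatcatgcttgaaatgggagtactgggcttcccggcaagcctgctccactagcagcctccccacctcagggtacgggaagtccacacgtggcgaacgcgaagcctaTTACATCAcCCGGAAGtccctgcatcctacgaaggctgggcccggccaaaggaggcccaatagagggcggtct
ZNF556: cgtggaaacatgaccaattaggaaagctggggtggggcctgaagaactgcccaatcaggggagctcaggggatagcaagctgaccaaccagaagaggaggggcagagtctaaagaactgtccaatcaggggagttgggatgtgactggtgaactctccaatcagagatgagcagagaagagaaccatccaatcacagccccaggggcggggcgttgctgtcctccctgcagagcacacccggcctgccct

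The motifs were searched on both strands as TGANTCA (AP-1), TGACGTCA (the cyclic AMP response element), TGATGNAA (sites of C/EBP and ATF dimers), CCGGAAG (ETS factors), CGCATGCG (the core of the NRF1 motif) and AAGATGGC (YY1), and none of them contains another. A RefSeq window was found for 215 of the 246 members. The window of ZNF274 held an ETS match, that of ZNF460 held an AP-1, a C/EBP-ATF and an ETS match, and those of ZNF93 and ZNF556 held none of the 6. The ETS letters were present in 29 of 85 members called higher (34.1%), 23 of 75 tested members not called (30.7%) and 2 of 5 called lower, against 17.2% of 9012 tested genes and 8.48% of 34943 windows in RefSeq. Of 50 members under the filter 12 (24%) held the ETS letters. The AP-1 letters were present in 5 of the 85 members called higher (5.88%), 3 of the 75 not called (4%) and 0 of the 5 called lower, and in 3.66% of tested genes. They were also present in 5 of the 50 members under the filter (10%) and in 6.59% of all RefSeq windows. The cyclic AMP response element was present in 3, 1 and 0 of these groups of members and in 2.996% of tested genes, and the C/EBP-ATF letters in 2, 0 and 0 and in 1.25%. Under the filter 1 of 50 members held each, and over all RefSeq windows the shares were 1.63% and 3.15%. The NRF1 core was found in 0 of the 85, 4 of the 75 and 3.63% of tested genes, and the YY1 letters in 7 of the 85, 2 of the 75 and 2.04% of tested genes. Median GC content of the windows was 59.6% for members called higher, 60% for those not called and 59.2% for those called lower. A match is a run of letters and not a shown binding site.

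The largest rise was that of ZNF274, near the end of the long arm. ZNF274, a KRAB protein that recruits SETDB1 to the 3′ ends of other zinc finger genes, had 6.92, 6.42 and 7.12 FPKM in the CuB libraries, against 2.39, 2.46 and 2.19 FPKM in the DMSO libraries. The lowest CuB value was above the highest DMSO value, and the ratio of means was 2.91 (log2 fold change 1.22, SE 0.086, limma adjusted p = 9.77e-05). ZNF274 (ENSG00000171606, GRCh38, chromosome 19 from 58183029 to 58213562) overlaps no other gene of the table, so its fragments are not shared with an antisense gene there.

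ZNF93, a KRAB protein that silences LINE-1 retrotransposons, lies near the centromere on the short arm (ENSG00000184635, chromosome 19 from 19900913 to 19963464). It had 7.39, 6.12 and 5.57 FPKM in CuB, against 2.53, 1.59 and 2.47 FPKM in DMSO, a ratio of means of 2.90 (log2 fold change 1.21, SE 0.156, limma adjusted p = 0.00131). DMSO replicate 2 was the lowest of the 6, and the groups did not overlap, as the choice of these genes required. ZNF829, a KRAB zinc finger gene of the long arm, averaged 3.27 ± 0.0987 FPKM in CuB and 0.996 ± 0.127 FPKM in DMSO (SD, n = 3 each), a ratio of 3.29, the highest among the 10 largest rises (log2 fold change 1.10). It overlaps ZNF345 on the opposite strand, which averaged 0.390 FPKM, and the library kit named in the labels is not described there as marking strand.

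The other members of the 10 largest rises were ZNF460, ZNF416, ZNF256, ZNF222, ZNF551, ZNF134 and ZNF787, with log2 fold changes from 1.11 to 0.99 and limma adjusted p from 0.00015 to 0.0139. ZNF551 had 10.7, 11.3 and 10.2 FPKM in CuB, against 5.09, 4.05 and 5.26 FPKM in DMSO, and ZNF134 had 10.8, 10.5 and 10.2 FPKM in CuB, against 4.69, 4.53 and 4.999 FPKM in DMSO. In both genes the lowest CuB value was well above the highest DMSO value. ZNF787 was the loosest, at 15.8, 21.02 and 26.5 FPKM in CuB and 8.94, 13.4 and 8.11 FPKM in DMSO, and it missed the threshold without DMSO replicate 1 (adjusted p = 0.0508). Its DMSO replicate 2, the DMSO library with the highest GC content, was above the other DMSO libraries. With the correction for mRNA GC content its log2 fold change was 0.98 (limma adjusted p = 2.61e-05). ZNF416 overlaps ZIK1, another zinc finger gene, on the opposite strand, and ZIK1 rose as well (log2 fold change 0.73, limma adjusted p = 0.00363), so fragments at shared positions cannot be assigned to either gene. The same limit holds for ZNF460, which AC005261.5 (mean 2.97 FPKM) and ZNF460-AS1 (0.400 FPKM) overlap on the opposite strand. Opposite-strand genes also overlap ZNF787 (RF00019, 2.91 FPKM) and ZNF551 (ZNF154, 0.184 FPKM).

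**Figure D3:**
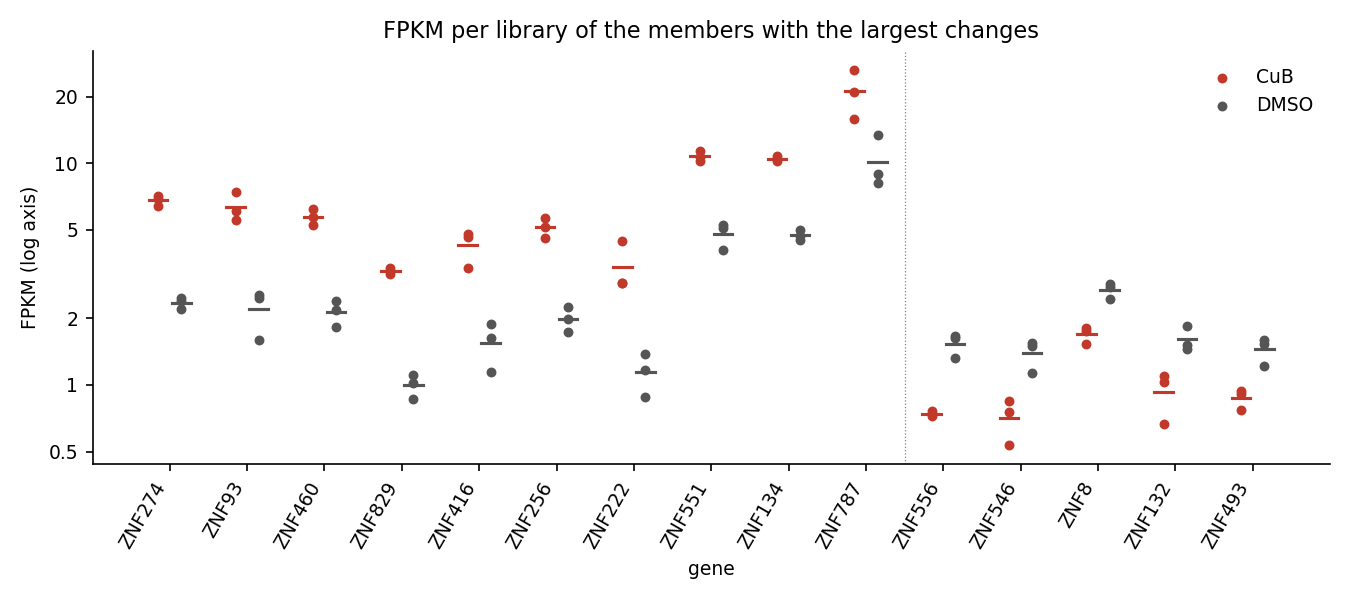
FPKM in each library (vertical log axis) for the 10 members with the largest called rises, left of the dotted line, and the 5 members called lower, right of it, with CuB left of DMSO for each gene and a bar at the mean of 3 libraries. The 15 genes were picked among called members whose CuB and DMSO values do not overlap, so the lack of overlap here was set by the choice.

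The 5 falls were smaller on the log2(FPKM + 1) scale, in genes whose mean over the 6 libraries lay between 1.05 and 2.19 FPKM. That scale understates the change of such low genes. In a fit to the recovered fragments (limma-voom) the 5 log2 fold changes ran from -1.04 for ZNF556 to -0.66 for ZNF8. The rises of ZNF274 and ZNF829 were 1.54 and 1.72 in that fit. ZNF556 had 0.762, 0.736 and 0.722 FPKM in CuB, against 1.32, 1.64 and 1.66 FPKM in DMSO (log2 fold change -0.54, SE 0.118, limma adjusted p = 0.0112). It was the only 1 of the 5 that passed in every alternative in which it was tested. ZNF8 averaged 1.70 ± 0.151 FPKM in CuB and 2.68 ± 0.218 FPKM in DMSO (SD, n = 3 each), and its limma adjusted p of 0.0141 became 0.0616 when DMSO replicate 1 was left out and 0.0638 when CuB replicate 2 was. ZNF546, ZNF132 and ZNF493 fell by 0.48, 0.44 and 0.38 on the log2 scale, with limma adjusted p of 0.0317, 0.0452 and 0.0455, and each lost the call in 8 to 11 of 19 alternatives, among them the removal of DMSO replicate 1 or 3 and of each CuB library. All 5 carry a KRAB match, which 156 of the 183 tested members have. Of the 27 tested members without that match 0 were called lower, but 8 had a log2 fold change below 0. Among these 8, ZNF358 (-0.72, limma adjusted p = 0.0504) and ZNF580 (-0.48, limma adjusted p = 0.0518) just missed the threshold.

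The most abundant members are mostly short proteins without a KRAB match. ZNF146 (OZF), made almost only of zinc fingers, was the highest, at 58.4, 51.1 and 45.6 FPKM in CuB, against 37.3, 30.4 and 39.3 FPKM in DMSO. The groups did not overlap and it was called higher (log2 fold change 0.53, limma adjusted p = 0.0182), but not after quantile normalization (0.164), at equal fragment totals (0.0587) or without CuB replicate 1 (0.0501) or 2 (0.0609). ZNF317, a KRAB protein, had 19.7, 19.85 and 20.3 FPKM in CuB, against 9.83, 9.71 and 10.004 FPKM in DMSO, a ratio of means of 2.02 (log2 fold change 0.95, limma adjusted p = 0.000121). ZNF121 averaged 13.6 ± 1.47 FPKM in CuB and 8.65 ± 1.37 FPKM in DMSO (SD, n = 3 each; log2 fold change 0.60, limma adjusted p = 0.0112). ZNF581 averaged 12.6 ± 0.179 FPKM in CuB and 10.6 ± 1.32 FPKM in DMSO (SD, n = 3 each) and did not pass (adjusted p = 0.105), but passed without DMSO replicate 2 (0.0129). It overlaps ZNF580 and CCDC106 on its own strand.

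Members with a known role outside the rule for named genes were looked up after their values were seen. ZNF473, the protein ZFP100 of the machinery that cuts histone mRNA 3′ ends, had 8.84, 9.13 and 9.38 FPKM in CuB, against 3.93, 4.09 and 4.53 FPKM in DMSO (log2 fold change 0.97, limma adjusted p = 0.000235). ZNF420 (Apak), a KRAB repressor of p53 activity, and ZNF808, which binds primate endogenous retroviral elements, rose by 0.59 and 0.51 on the log2 scale. ZNF91, which silences SVA retrotransposons, was at 6.17, 6.02 and 4.79 FPKM in CuB and 4.96, 3.38 and 5.67 FPKM in DMSO, where the groups overlap, and did not pass. ZNF350 (ZBRK1), a partner of BRCA1, ZNF331, an imprinted gene, and ZNF224, a repressor of the aldolase A gene, had log2 fold changes of 0.27, 0.11 and -0.16 and did not pass. The lowest log2 fold change of all members belonged to ZNF358, at 4.81, 5.72 and 5.66 FPKM in CuB and 7.90, 14.8 and 7.28 FPKM in DMSO (-0.72), which just missed the threshold (limma adjusted p = 0.0504). Its DMSO replicate 2 value lay far above the other DMSO values, which were in turn above all CuB values.

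The members were then read along the chromosome. Runs of members whose starts lay within 500 kb of each other, with at least 5 members, made 10 clusters that hold 232 of the 246 genes, numbered from the short-arm end. On the short arm 25 of 62 tested members rose and 2 fell (median log2 fold change 0.32), and on the long arm 67 of 121 rose and 3 fell (median 0.46). In none of the 10 clusters was the median below 0. Of 162 pairs of tested neighbours within a cluster 121 had log2 fold changes of the same sign, a count that the general shift upwards also raises.

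**Figure D4:**
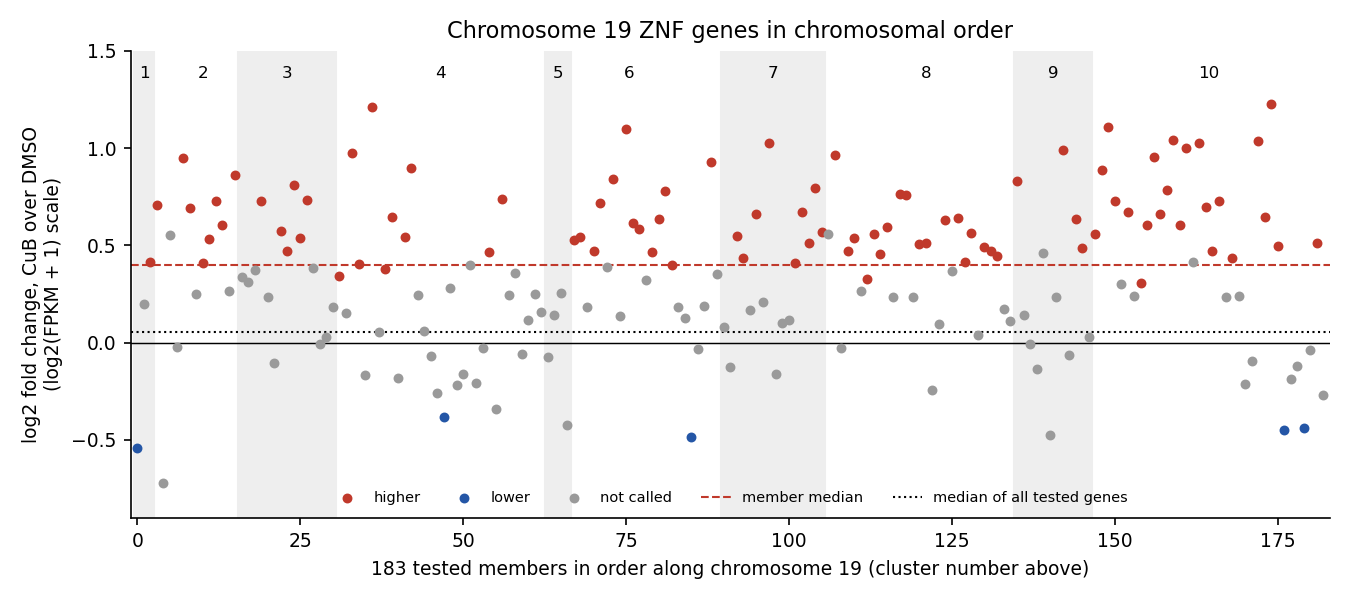
Log2 fold change of CuB over DMSO on the log2(FPKM + 1) scale (vertical axis) for the 183 tested members in their order along chromosome 19 (horizontal axis), with called members in red (higher) and blue (lower), clusters numbered above and shaded in turn, and lines at the member median (0.40) and the median of all tested genes (0.05). Points above 0 prevail in most clusters, and the last members of cluster 10 lie mostly below 0.

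The clusters differed in their counts. Cluster 6 (36.2 to 37.8 Mb), with ZNF829 and ZNF146, had 18 tested members, of which 12 rose and all 18 had a log2 fold change above 0, with a median of 0.50. Cluster 2 (8.5 to 9.8 Mb), led by ZNF317, had 7 of 11 that rose and a median of 0.55. Cluster 8 (51.6 to 53.6 Mb), led by ZNF766 (log2 fold change 0.76), had 17 of 27 that rose, and cluster 7 (43.5 to 44.5 Mb), led by ZNF222, had 9 of 16. Cluster 3 (11.5 to 12.6 Mb), led by ZNF844 (0.81), had 6 of 15. In none of these 5 clusters was a member called lower.

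Lower counts were found in 4 other clusters. Cluster 4 (19.7 to 24.1 Mb), the primate-expanded group that holds ZNF91, had 9 of 30 that rose, led by ZNF93, and ZNF493 that fell, with a median of 0.20 and 11 members below 0. Cluster 9 (55.5 to 56.7 Mb) had 4 of 12 that rose, led by ZNF787, and a median of 0.19. It holds 6 KRAB genes among 16 members, and the median mRNA GC content of its tested members was 65.0%, against 44.1% over all tested members. In cluster 5 (34.7 to 35 Mb) 0 of 4 tested members were called, and in cluster 1 (2.8 to 2.9 Mb) ZNF77 rose and ZNF556 fell among 3, where ZNF77 lost the call with any 1 of the 6 libraries left out (highest limma adjusted p over all alternatives 0.116). Of the 11 tested members outside clusters 4 rose and ZNF546 fell.

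Cluster 10 (57.2 to 58.5 Mb), the largest, held 6 of the 10 largest rises and 2 of the 5 falls. Of its 36 tested members 23 rose. Those that rose lay mostly in its first part: before ZNF8 22 of 29 tested members rose and 0 fell, with a median log2 fold change of 0.65. From ZNF8 to the end ZNF324 rose and ZNF8 and ZNF132 fell among 7 members, with a median of -0.19. ZNF324 lost the call when DMSO replicate 1 or 3 or CuB replicate 2 or 3 was removed (highest limma adjusted p over all alternatives 0.0928). The division at ZNF8 was chosen after the values were seen. The median mRNA GC content was 47.3% in the first part and 60.3% in the second.

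**Figure D5:**
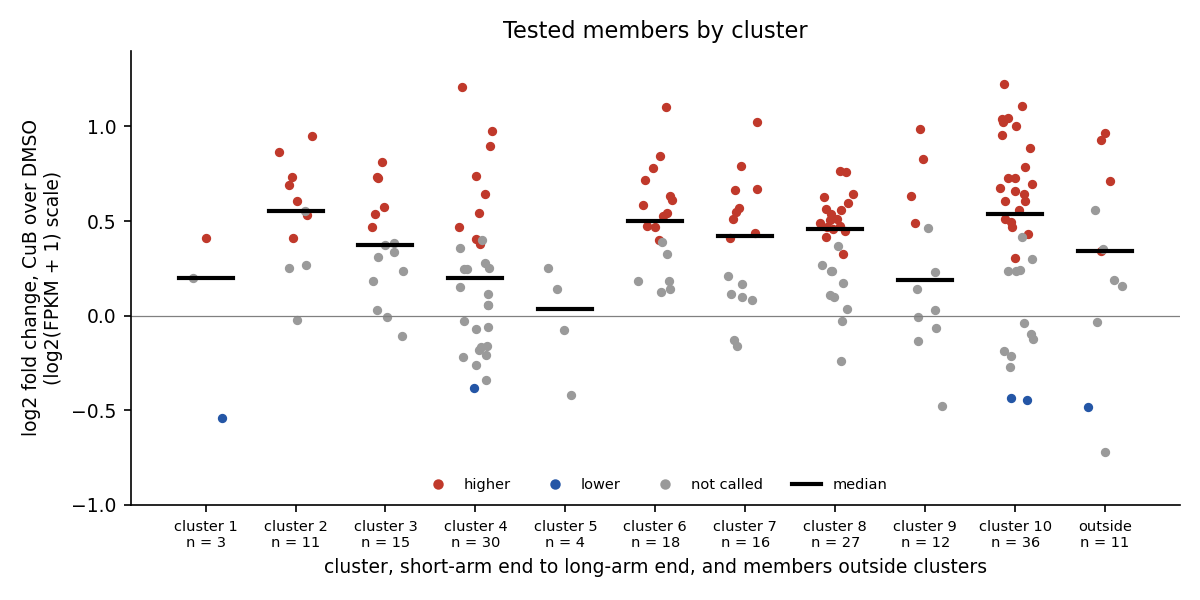
Log2 fold change of CuB over DMSO on the log2(FPKM + 1) scale (vertical axis) of each tested member by cluster and for members outside clusters (horizontal axis), with a black bar at the median and colours as called higher, lower or not called in limma. Medians run from 0.03 in cluster 5 to 0.55 in cluster 2, and cluster 6 has 0 points below 0.

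Other genes within the same stretches gave other counts. Of 7 tested coding genes inside the cluster bounds that the table tags zf-C2H2 but that are named otherwise, 5 rose and 0 fell, with a median of 0.44. Of 19 tested coding genes there without the tag 3 rose and 1 fell (median 0.25), and of 61 tested non-coding genes 8 rose and 7 fell (median 0.05). With so few genes the shares are loose, and the difference between them was not tested.

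The counts were next set beside features of the proteins and mRNAs. Of the 156 tested members with a KRAB match 84 rose and 5 fell (median 0.41), and of the 27 without it 8 rose and 0 fell (median 0.25). The median mRNA GC content was 43.7% over all members with the match and 61.5% over those without it. Of the 9 tested members without the match whose mRNA had under 50% GC, 5 rose (median 0.47), and of the 18 at or over 50% GC, 3 rose (median 0.19). Of those with the match, 80 of 147 rose under 50% GC (median 0.41) and 4 of 9 at or over it (median 0.03). The division at 50% was made after the values were seen, and no difference between these groups was tested. In 3 equal groups by number of fingers, 30 of 61 members rose in the group with the fewest, 30 of 61 in the next and 32 of 61 in the group with the most. By level, 22 of the 61 lowest members rose (median 0.24), 38 of the 61 in the middle and 32 of the 61 highest (median 0.46). Across the 183 members, which share libraries, Spearman's rho with the log2 fold change was -0.005 for the number of fingers, 0.06 for mRNA GC content and 0.22 for mean FPKM, as a description. The value for mean FPKM has the same limit of scale.

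Sequence shared between paralogs limits these gene counts. In the median member 9.48% of the 31-base words of its transcripts occur in transcripts of another gene, and in 11 members at least 50% do, among them ZNF724, the only 1 of the 4 tested that was called higher. Of the 95 tested members with under 10% shared words 55 rose and 2 fell (median 0.47), and of the 84 with 10 to 50% shared words 36 rose and 3 fell (median 0.27). Genes on the opposite strand overlap 94 tested members, of which 50 rose, and not the other 89, of which 42 rose. Of the 56 tested members that overlap no other deposited gene, 29 rose and 2 fell, with a median of 0.41.

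The 63 members under the filter had few fragments and were split between the directions. Their fragments were summed over the 3 libraries of a group and scaled by the library sizes behind the FPKM values, which gave a ratio of CuB to DMSO above 1 in 32 and below 1 in 28, with a median of 1.08. Every ratio would be lower at equal fragment totals, so the side of 1 that prevails depends on the scaling. The exact 95% interval, which covers counting error only, lay above 1 for 15 members and below 1 for 19. ZNF536 had 74 fragments in CuB and 199 in DMSO, a ratio of 0.400 (0.302 to 0.525), and ZNF419 had 482 and 235, a ratio of 2.21 (1.88 to 2.59). These 2 were picked after their values were seen.

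Genes of the corepressor machinery that KRAB proteins use moved in both directions. Of 21 tested genes of that list 3 rose and 5 fell, with a median log2 fold change of -0.14, where 22.9% and 15.6% of all tested genes were called in these directions. After rescaling to the same sum 1 rose and 8 fell, at equal fragment totals 1 rose and 9 fell, and without DMSO replicate 1 or 3 or CuB replicate 2 1 rose and 2 fell. Over all tested genes 17.5% rose and 20.1% fell after rescaling to the same sum, and 15.2% and 23.7% at equal fragment totals. With any of those libraries left out, 14.8% to 18.3% of all tested genes rose and 9.77% to 11.9% fell. CBX5, which encodes HP1 alpha, had the largest change, at 10.3 ± 0.293 FPKM in CuB and 18.9 ± 2.11 FPKM in DMSO (SD, n = 3 each; log2 fold change -0.81, limma adjusted p = 0.00108). RBBP4, a histone chaperone of several repressor complexes, fell by 0.41, and DNMT1, the maintenance DNA methyltransferase, rose by 0.53. TRIM28 itself, on chromosome 19 from 58544091 to 58550722, had 202.9, 243.2 and 274.0 FPKM in CuB, against 145.8, 196.3 and 130.3 FPKM in DMSO. It was called higher (log2 fold change 0.62, limma adjusted p = 0.0284), but not without a filter (0.0876), after rescaling to the same sum (0.0543), after quantile normalization (0.084), at equal fragment totals (0.081) or when any of 4 libraries, DMSO replicates 1 and 3 and CuB replicates 2 and 3, was left out (0.0785 to 0.0896). SETDB1 was at 11.9 ± 0.620 FPKM in CuB and 10.7 ± 0.138 FPKM in DMSO and did not pass (adjusted p = 0.199).

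Of 22 tested genes on a list of C2H2 factors that are named otherwise 10 rose and 1 fell, where 22.9% of all tested genes were called higher and 15.6% lower. The median log2 fold change of the list was 0.32, and it was 0.12 over the 13 genes that averaged 5 FPKM or more and 0.06 over all 30 without a filter. ZIK1 and ZBTB17 (MIZ1, a partner of MYC) each rose by 0.73, SP4 and ZBTB7A, factors of GC-rich promoters, each by 0.70, all on the log2 scale, with limma adjusted p from 0.00363 to 0.00901. CTCF, the insulator protein, rose by 0.45 and REST, the repressor of neuronal genes, by 0.49. ZFP90, a KRAB zinc finger gene, was the gene that fell, at 1.89 ± 0.213 FPKM in CuB and 3.67 ± 0.177 FPKM in DMSO (log2 fold change -0.69). CTCF, REST and ZFP90, and SETDB1 above, were named after their values were seen.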

How the data were processed

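Expression was measured in 3 CuB and 3 DMSO libraries of A375 cells, made with a TruSeq RNA kit, per the labels' protocols. The deposited table holds FPKM made by the authors for 58735 genes on GRCh38, per the submitters' processing notes, with aligner, counter and scaling not given in the sources used here. Columns were matched to samples by library name. Gene coordinates matched GENCODE 29 for all 58735 genes, and that annotation gave mRNA GC content (known for 99.94% of tested genes), coding sequences and shared 31-base words. All FPKM values could be turned back into whole fragments, with a tolerance of 0.01. Library totals lay between 14845976 and 16137093 fragments.

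Values were tested as log2(FPKM + 1), which understates the change of low genes, for genes that averaged 1 FPKM or more. limma 3.58.1 in R 4.3.3 fitted the 2 groups with an intensity trend, without a replicate block (4 residual degrees of freedom). The p-values were adjusted by Benjamini-Hochberg over all 13273 tested genes at 0.05. In data simulated from these libraries the share of false calls lay somewhat above the nominal level in most runs, so calls close to the threshold are less certain than their adjusted p. The simulation set the same dispersion for all genes, drew genes independently and changed only a small part of them. It therefore does not measure the share of false calls in the real libraries. Replicates differed by more than sampling noise, at 2.80 to 24.3 chi-square units per degree of freedom. Motifs were searched in RefSeq windows of 250 bases. Plots used Python 3.11.15 and matplotlib 3.10.9.

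The members, lists, tests and alternatives were chosen with earlier results of these data known. Named members were the 10 largest rises and up to 10 largest falls that passed without overlap, the 5 highest means, the largest call of each cluster, and up to 4 calls of each list. Alternatives were pseudocounts of 0.1 and 0.5, no filter or 5 FPKM, 4 scalings, limma without trend or robust, limma-voom on recovered fragments, a GC correction by lowess (span 0.3), the replicate block, and each library left out.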

Additional observations from a re-analysis of the deposited data

How the results depend on the processing

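The median log2 fold change of the members stayed above 0 in all 20 alternatives, from 0.239 to 0.549, and exceeded the median of all tested genes by 0.247 to 0.483. It was 0.537 with a pseudocount of 0.1, 0.549 with limma-voom, 0.239 without a filter and 0.278 at equal fragment totals. Without a filter 70 of 244 members rose (28.7%, the lowest share), where 8.02% of all tested genes rose. The count was 19 of 33 with a filter at 5 FPKM (57.6%, against 29.4% of all tested genes). It was from 61 to 84 with a library left out, where 14.8% to 25.9% of all tested genes rose. The count that fell was 2 without a filter, 2 at 5 FPKM, 9 at equal fragment totals, 8 with limma-voom, 12 with the GC correction, 3 with the replicate block, and from 1 to 8 with a library left out. Of all tested genes 6.11% fell without a filter, 12.8% at 5 FPKM, 23.7% at equal fragment totals and 16.2% with limma-voom. That share was 23.99% with the GC correction, 13.5% with the replicate block, and from 9.77% to 17.4% with a library left out. Over all genes 3250 were called at 5 FPKM and from 3262 to 5755 with a library left out. Of all calls 59.5% were higher as deposited, 46.5% with the same sum, 47.2% after quantile normalization and 39.1% at equal fragment totals. The corepressor list had 5 calls without a filter, 14 with the GC correction, 4 with the replicate block, and from 3 to 10 with a library left out. Over all genes 4639 of 32824 were called without a filter, 7591 of 13273 with the GC correction and 4443 of 13273 with the replicate block. The list of other C2H2 factors had 6 calls at 5 FPKM. Equal fragment totals multiplied the values by 0.914 to 0.927 in the CuB libraries and by 1.033 to 1.036 in the DMSO libraries, and a filter at 5 FPKM leaves fewer genes. Beyond these the cause of the changes was not tested. Of the 97 called members 59 passed in every alternative in which they were tested, 58 that rose and 1 that fell, and 0 changed direction.

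Same-numbered libraries did not deviate together in every pair (correlations 0.27, 0.12 and -0.36 over 13273 genes), so the numbers are not taken as pairs. With the replicate block 77 members rose and 3 fell, of which 76 and 2 were also called without it. In that fit 19.9% of all tested genes rose and 13.5% fell. Of 183 tested members 61 had means of 2.14 FPKM or less, where the depth limits what could be called, and a difference that did not pass there is not shown to be absent.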
